A study of Mus musculus with 8 samples.

Results

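Sncg, Nnat, Cdsn, Krt79 and Tmem273 were 5 of the 19348 genes in the count table of this series, taken by gene symbol because their counts rose far in epididymal white adipose tissue (eWAT) of mice labelled Crtc1-/- (knockout-labelled below, beside wild-type for the label Crtc1+/+). That rise chose them, so the eWAT levels of these 5 genes, their folds and their ratios to fat genes are descriptions without a test. Crtc1 is a coactivator of the transcription factor CREB, and its effect on gene expression was read by RNA-seq of liver and eWAT from male C57BL/6 mice aged 12 weeks on a normal diet, fasted for 16 h. Each of the 4 groups (liver or eWAT, labelled Crtc1-/- or Crtc1+/+) had 2 libraries, 8 in all. The Crtc1-/- line carried a whole-body deletion made by CRISPR/Cas9 with guides against early exons, so no single tissue was targeted, and homozygotes were bred from heterozygous parents through several generations with Crtc1+/+ littermates as controls.

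The 5 genes have separate known roles. Sncg encodes gamma-synuclein, a small soluble protein of the synuclein family that is abundant in peripheral neurons and also in white adipocytes, where it has been linked to lipid storage. Nnat encodes neuronatin, a small proteolipid of the endoplasmic reticulum found in brain, pancreatic islets and fat, and is imprinted, being expressed from the paternal allele. Cdsn encodes corneodesmosin, a secreted glycoprotein that holds the outer cells of the epidermis together in corneodesmosomes. Krt79 encodes a type II keratin known from hair follicles and sebaceous glands, and Tmem273 encodes a predicted single-pass membrane protein with little known function. In white fat, mature adipocytes are marked by Adipoq, which encodes the hormone adiponectin, and by Plin1, which encodes the lipid droplet coat protein perilipin 1, and the levels of the 5 genes were therefore also read against these genes.

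The windows upstream of the annotated starts are shown because Crtc1 acts through CREB at promoters. The shared rise of the 5 genes in eWAT is what chose them, and shared regulation was not tested. Sequences are from RefSeq on GRCm38.p6, 5′ to 3′ along each gene, from 250 bases before to 10 bases after the start of transcription. The capitals mark matches to the motifs searched.
Sncg, chr14:34374660-34374919, minus strand: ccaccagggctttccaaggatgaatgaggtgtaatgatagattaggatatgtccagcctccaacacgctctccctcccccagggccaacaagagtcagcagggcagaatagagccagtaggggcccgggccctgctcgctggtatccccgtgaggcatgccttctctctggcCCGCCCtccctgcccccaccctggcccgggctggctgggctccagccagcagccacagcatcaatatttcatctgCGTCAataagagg
Nnat, chr2:157559828-157560087, plus strand: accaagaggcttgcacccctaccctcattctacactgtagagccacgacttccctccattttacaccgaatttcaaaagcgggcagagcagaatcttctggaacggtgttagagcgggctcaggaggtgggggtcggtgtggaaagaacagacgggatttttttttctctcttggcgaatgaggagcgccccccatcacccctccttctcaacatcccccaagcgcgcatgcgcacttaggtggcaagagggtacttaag
Cdsn, chr17:35551878-35552137, plus strand: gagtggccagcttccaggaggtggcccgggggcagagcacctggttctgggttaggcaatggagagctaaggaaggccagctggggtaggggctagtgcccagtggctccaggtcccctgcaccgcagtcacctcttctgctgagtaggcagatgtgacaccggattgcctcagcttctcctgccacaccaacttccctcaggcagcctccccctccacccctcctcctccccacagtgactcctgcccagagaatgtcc
Krt79, chr15:101940315-101940574, minus strand: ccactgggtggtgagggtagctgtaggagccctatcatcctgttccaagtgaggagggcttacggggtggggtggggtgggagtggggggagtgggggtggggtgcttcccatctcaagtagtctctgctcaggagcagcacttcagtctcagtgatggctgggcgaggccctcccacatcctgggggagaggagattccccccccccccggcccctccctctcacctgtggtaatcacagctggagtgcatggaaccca
Tmem273, chr14:32785713-32785972, plus strand: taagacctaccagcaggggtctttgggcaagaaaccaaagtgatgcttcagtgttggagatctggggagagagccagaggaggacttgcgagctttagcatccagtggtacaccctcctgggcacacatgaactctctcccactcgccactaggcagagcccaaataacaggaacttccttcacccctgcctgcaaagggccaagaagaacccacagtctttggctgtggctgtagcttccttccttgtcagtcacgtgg

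All 5 genes matched the promoter table, and Cdsn had a start site further upstream as well, whose window held none of the motifs. Motifs were searched on both strands over 300 bases, to 50 bases past the start. The full cAMP response element bound by CREB (TGACGTCA) was in none of the windows and in 1.79% of the 32851 promoters of the table, and its shorter core (TGACG), which the full element contains, was in 20.8% of them. Among the 5 genes the core was found in Sncg, on the reverse strand from base -3 to base 2 across the start, where the GENCODE annotation places the start 120 bases further upstream. The GC box (GGGCGG) was also found in Sncg, from base -78 to base -73, and in 35.7% of all promoters. The nuclear receptor core (AGGTCA, in 16.3% of promoters), its direct repeat with 1 base between the copies to which PPAR and RXR bind (in 0.0396%) and the TATA box (TATAAA, in 13.6%) had no match in these windows. GC content was 53.7% in the upstream and 63.0% in the downstream Cdsn window, beside a median of 52.7% over all promoters, and was 61.3% in Sncg, 57.3% in Nnat, 62.0% in Krt79 and 55.7% in Tmem273.

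The libraries held 16560085 to 19721481 counts, and a floor of 3 counts corresponded to 0.145 to 0.208 CPM (counts scaled to the library total, with that total adjusted by TMM factors within a tissue). In eWAT, 1875 of 15391 genes tested passed an adjusted p of 0.05 in the edgeR quasi-likelihood test (genes called higher or lower below), 54.6% of them higher in the knockout-labelled libraries, a share that became 42.8% with upper-quartile and 35.3% with library-size scaling. None passed when either Crtc1+/+ eWAT library was left out, where 3436 and 2565 genes had an unadjusted p under 0.05, so every adjusted p in eWAT below depended on both of those libraries. Crtc1 itself was not lower under the label: wild-type eWAT had 32.6 and 33.7 CPM and knockout-labelled eWAT 58.5 and 33.6 CPM, with 11.7 and 9.86 against 22.1 and 17.98 CPM in liver. Counts per gene cannot show the loss of a few exons, and directions below are given by label. The eWAT libraries also differed in other tissues' markers. The summed counts of 40 epididymis markers were 10.9% and 12.4% of the library in wild-type eWAT and 0.00649% and 0.00189% in knockout-labelled eWAT, with 37 of 40 called lower (5.54% of all genes tested were). Hepatocyte markers (17 genes) were 12.4% of the second eWAT library labelled Crtc1-/- and 0.201% to 0.871% of the other eWAT libraries. The part of these differences in the results below was not tested, and in whole tissue fewer cells of a type and less RNA per cell cannot be told apart.

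Sncg was far lower in wild-type eWAT than in knockout-labelled eWAT, where it was among the more abundant mRNAs. It was at 10.3 and 16.0 CPM in the Crtc1+/+ libraries (213 and 308 counts) and at 664 and 597 CPM in the Crtc1-/- libraries (12082 and 8606 counts). The group means were 13.1 ± 4.04 and 631 ± 47.1 CPM (SD, n = 2), the fitted log2 fold change was 5.59, and this is a 48.1-fold difference in level. Per transcript length, Sncg was at 19.9 and 30.2 FPKM in the Crtc1+/+ libraries, ranks 3905 and 2626 among the genes of the table, and at 1113 and 814 FPKM in the Crtc1-/- libraries, ranks 114 and 149. The groups did not overlap, and the spread between the replicates was small beside the gap. Both knockout-labelled libraries lay above both wild-type libraries in 31.3% of the genes tested in eWAT, and the 5 genes are among them because they were chosen by this contrast.

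Nnat was likewise far lower in one set of eWAT libraries than in the other. Its level was 21.9 and 36.4 CPM in wild-type eWAT and 920 and 749 CPM in knockout-labelled eWAT (29.1 ± 10.3 against 834 ± 120 CPM, SD, n = 2), with a fitted log2 fold change of 4.84, the smallest of the 5. Per length, Nnat was at 22.8 and 36.8 FPKM against 831 and 557 FPKM, so that it stood above Sncg in both Crtc1+/+ libraries and below Sncg in both Crtc1-/- libraries. Across the libraries of a group the FPKM of Sncg and Nnat overlapped, and their order within a group is not larger than the spread between replicates.

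Cdsn, Krt79 and Tmem273 were near the limit of detection in wild-type eWAT. Cdsn had 19 and 12 counts there (0.915 and 0.622 CPM) and 1113 and 333 counts in knockout-labelled eWAT (61.2 and 23.1 CPM), a fitted log2 fold change of 5.76. Krt79 had 5 and 7 counts against 323 and 155 (0.241 and 0.363 against 17.8 and 10.8 CPM), a log2 fold change of 5.53. Tmem273 had 6 and 10 counts against 305 and 185 (0.289 and 0.519 against 16.8 and 12.8 CPM), a log2 fold change of 5.18. In all 3 the lower library labelled Crtc1-/- stood far above the higher library labelled Crtc1+/+. The size of the fold is loose all the same, because the exact Poisson 95% interval of the 5 Krt79 counts runs from 1.62 to 11.7 counts and that of the 6 Tmem273 counts from 2.20 to 13.1, covering counting error only. Cdsn varied most between the libraries labelled Crtc1-/-, at 42.1 ± 26.9 CPM (SD, n = 2), and without the first of them the median log2 fold change of the 5 genes was 4.98 in place of 5.53.

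**Figure D1:**
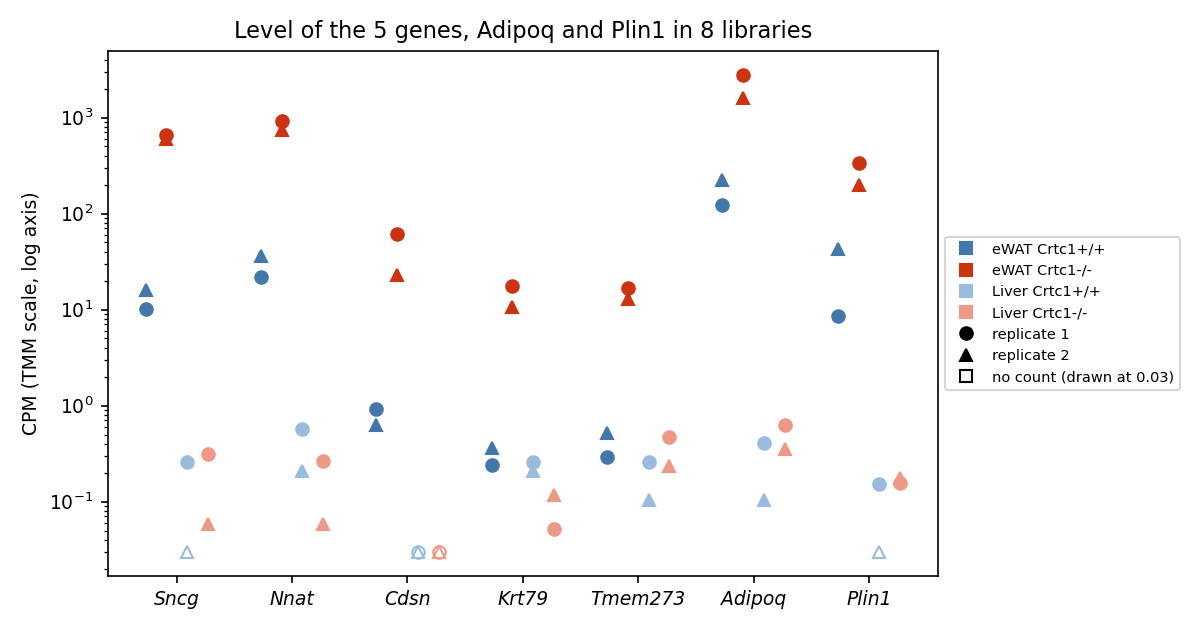
CPM on a log axis of the 5 genes, Adipoq and Plin1 in each of the 8 libraries, with color for tissue and labelled genotype and the marker shape for the replicate; open markers drawn at the bottom had no count. In eWAT the 2 libraries labelled Crtc1-/- lie above the 2 labelled Crtc1+/+ for each gene, and the liver libraries lie below 1 CPM.

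Compared per length, the Crtc1-/- eWAT libraries held the 5 genes in 2 tiers. Sncg and Nnat were at 557 to 1113 FPKM there, and Cdsn (26.0 and 8.08), Tmem273 (12.5 and 7.89) and Krt79 (8.94 and 4.48) were at 26.0 FPKM or less. Within the lower tier, the ranges of Cdsn and Tmem273 and those of Tmem273 and Krt79 overlapped. In wild-type eWAT the lower tier was at 0.14 to 0.47 FPKM, and Adipoq was at 129 and 230 FPKM there against 2536 and 1180 FPKM in knockout-labelled eWAT.

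The 5 genes stood close together in the order of rises. Among the 1012 genes called higher that had a mean of at least 2 CPM over the eWAT libraries and no overlap between the groups, Cdsn was number 7, Sncg 9, Krt79 10, Tmem273 12 and Nnat 19 by log2 fold change. The genes next to them were Mogat2 (5.92), which makes diacylglycerol, and Gpr1 (5.69), a receptor for the adipokine chemerin, around Cdsn, then Igsf21 (5.46) and Crtac1 (5.14) on either side of Tmem273. Nnat stood between Epor (4.88), the erythropoietin receptor, and Gpihbp1 (4.83), the capillary anchor of lipoprotein lipase. Of all genes tested 6.65% were called higher, and this order is the one the 5 genes were chosen on.

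The adipocyte markers had positive folds in the same libraries, smaller than those of the 5 genes. Because the 5 genes were chosen for a large rise in this contrast, that gap follows from the choice and was not tested. Adipoq went from 124 and 226 CPM to 2803 and 1589 CPM, a log2 fold change of 3.65 ± 0.60 (SE, adjusted p = 0.0287, edgeR quasi-likelihood test), which is 12.5-fold. Plin1 went from 8.57 and 43.1 CPM to 340 and 200 CPM, a log2 fold change of 3.38 ± 0.86, and did not pass the threshold (adjusted p = 0.0669). Of 21 adipocyte markers, 13 were called higher and 0 lower in edgeR (all 21 had a positive fold, 20 called higher by DESeq2), with a median log2 fold change of 3.38 beside -0.05 over all genes. Fabp4, the fatty acid carrier of adipocytes, had the largest fold among these markers (4.14 ± 0.82, adjusted p = 0.0409), followed by the hormone leptin, Lep (4.13 ± 0.67, adjusted p = 0.0287), and both lay below Nnat, Fabp4 by less than its standard error. Over the whole transcriptome, 422 genes (2.74%) had a larger fold than Adipoq and 543 (3.53%) a larger fold than Plin1.

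**Figure D2:**
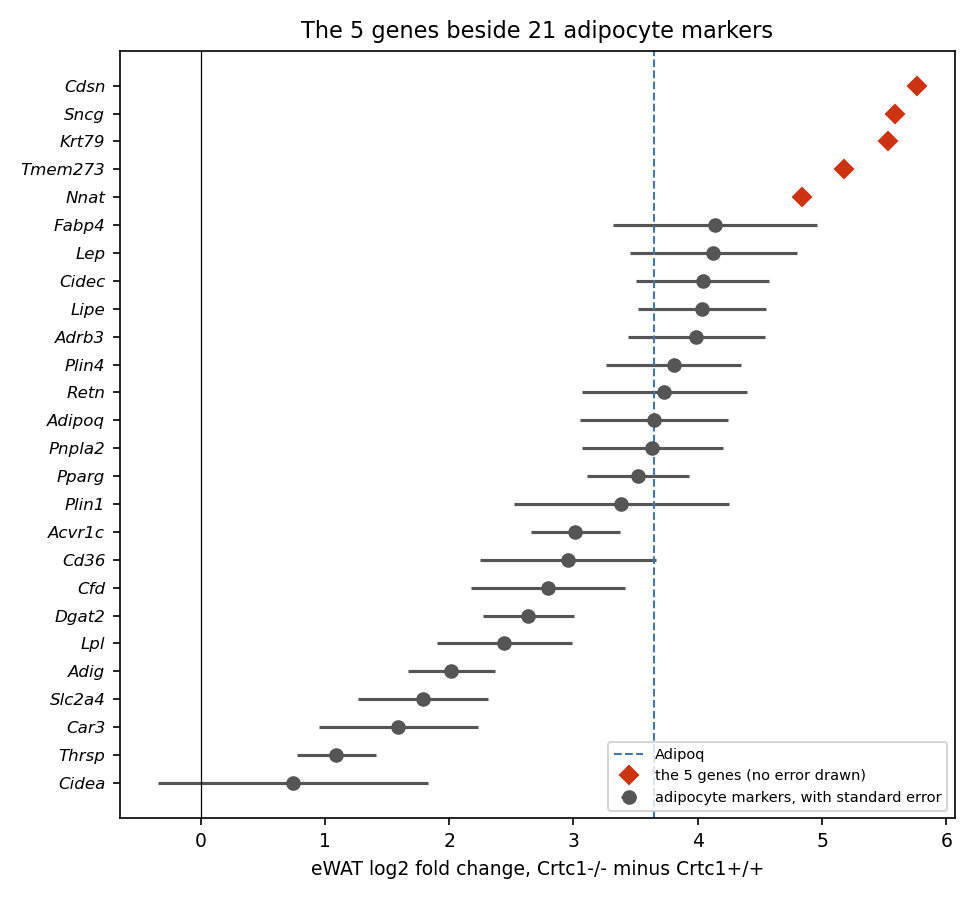
Fitted eWAT log2 fold change (Crtc1-/- minus Crtc1+/+) of the 5 genes, drawn without error because they were chosen by it, and of 21 adipocyte markers with their standard errors; the dashed line marks Adipoq. The 5 genes lie from 4.84 to 5.76, to the right of the markers, which run from 0.74 to 4.14 (Fabp4).

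Relative to Adipoq, which no scaling factor between libraries changes, the rise of the 5 genes was 2.33-fold to 3.95-fold. Sncg had 8.30 and 7.05 counts per 100 Adipoq counts in wild-type eWAT and 23.7 and 37.6 in knockout-labelled eWAT, a 3.90-fold higher ratio. Nnat had 17.7 and 16.1 against 32.8 and 47.2, a 2.33-fold higher ratio. The ratio of Nnat thus rose least, and in neither gene did the groups overlap. Krt79 had 0.195 and 0.160 counts per 100 Adipoq counts against 0.633 and 0.677, a 3.71-fold higher ratio. Tmem273 had 0.234 and 0.229 against 0.598 and 0.809, a 3.005-fold higher ratio. Cdsn had 0.741 and 0.275 against 2.18 and 1.46, a 3.95-fold higher ratio, with the Crtc1+/+ libraries further apart than in the other 4 genes. The log2 fold of that Cdsn ratio, 1.98, was 2.70 without the first and 1.27 without the second Crtc1+/+ library. Sncg, Nnat, Krt79 and Tmem273 were higher per Adipoq count in the second Crtc1-/- library, whereas by CPM all 5 genes were higher in the first.

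Relative to Plin1 the gap narrowed, since Plin1 was low in the first Crtc1+/+ library (178 counts, against 832 in the second). Nnat had 255 and 84.4 counts per 100 Plin1 counts in wild-type eWAT and 270 and 375 in knockout-labelled eWAT. Cdsn had 10.7 and 1.44 against 17.97 and 11.6. For both genes the first Crtc1+/+ library came close to the lower Crtc1-/- library, and the mean gap was smaller than or near the spread of the Crtc1+/+ ratios (log2 difference 1.12 with an SD of 1.13 for Nnat, 1.88 with an SD of 2.04 for Cdsn, n = 2). Sncg had 120 and 37.0 against 195 and 299, Krt79 2.81 and 0.841 against 5.21 and 5.39, and Tmem273 3.37 and 1.20 against 4.92 and 6.43 counts per 100 Plin1 counts. The folds of the ratio to Plin1 were 3.63 for Sncg, 2.17 for Nnat, 3.68 for Cdsn, 3.45 for Krt79 and 2.80 for Tmem273. Read against the summed counts of the 21 adipocyte markers, they were 4.81, 2.87, 4.87, 4.57 and 3.70 in the same order. The adipocyte markers made up 0.351% and 0.584% of the counts in wild-type eWAT and 5.29% and 2.63% in knockout-labelled eWAT.

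**Figure D3:**
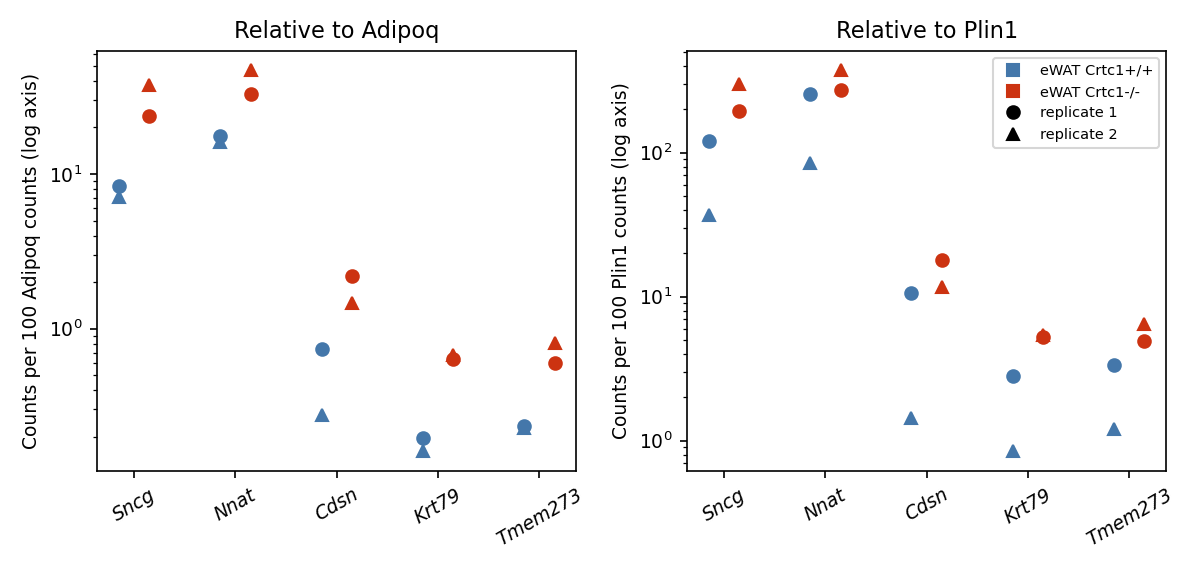
Counts of each of the 5 genes per 100 counts of Adipoq (left) and of Plin1 (right) in the 4 eWAT libraries, on log axes, with color for labelled genotype and the marker shape for the replicate. Relative to Adipoq the 2 groups are apart in each gene, and relative to Plin1 the first library labelled Crtc1+/+ lies close below the Crtc1-/- libraries for Nnat (255 against 270) and Cdsn (10.7 against 11.6).

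In liver the 5 genes were at or near the limit of detection in both genotypes, and this was the genotype comparison that had not chosen them. Sncg had 5 and 0 counts in wild-type liver and 6 and 1 in knockout-labelled liver. Nnat had 11 and 4 against 5 and 1, and Tmem273 had 5 and 2 against 9 and 4. These groups overlapped in each of the 3 genes. Krt79 had 5 and 4 counts in wild-type liver and 1 and 2 in knockout-labelled liver, with no overlap. Both knockout-labelled libraries lay below both wild-type libraries in 26.4% of the genes tested in liver. Cdsn had 0 counts in each of the 4 liver libraries, which at a floor of 3 counts allows up to 0.154 to 0.175 CPM. The highest liver level of any of the 5 genes was 0.565 CPM, for Nnat in the first Crtc1+/+ library.

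None of the 5 genes passed the filter on low counts in liver, where 11707 genes were tested and 7 were called higher (0.0598%) and 3 lower (0.0256%) in libraries labelled Crtc1-/-. Without the filter, edgeR's quasi-likelihood test could be run on 4 of them and called none, with log2 fold changes of 0.53 for Sncg (adjusted p = 0.867), -1.22 for Nnat (adjusted p = 0.610), -1.43 for Krt79 (adjusted p = 0.632) and 0.93 for Tmem273 (adjusted p = 0.697). A difference between the genotypes in liver was not detectable at this depth. The Krt79 and Tmem273 counts of wild-type eWAT (5 and 7, and 6 and 10) overlapped or came within 2 counts of the liver counts, whereas those of knockout-labelled eWAT lay far above them. Sncg and Nnat, by contrast, had 213 to 702 counts in the wild-type eWAT libraries.

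Sncg lies on chr14:34370274-34374669 (GRCm38.p6, minus strand), a protein-coding gene with 5 exons in its longest GENCODE transcript. Its relative Sncb, which encodes beta-synuclein, had 0 to 1.15 CPM (log2 fold change 1.12 ± 1.99, adjusted p = 0.714). Of 9 tested genes of the synuclein family and its partners, 0 were called in either direction by edgeR, and their median log2 fold change was 0.42. Hspa8, the heat shock cognate chaperone, and Vamp2, a SNARE protein of secretory vesicles, had log2 fold changes of 0.42 ± 0.48 and 0.20 ± 0.27. Among 8 tested neuronal and sympathetic markers, Syp (synaptophysin, log2 fold change 2.58 ± 0.52, adjusted p = 0.0419) rose and Npy (neuropeptide Y, -9.08 ± 1.26, adjusted p = 0.0229) fell, with a median of -0.22. The Syp call was lost with upper-quartile (adjusted p = 0.0506) and library-size scaling (adjusted p = 0.0654) and without the second Crtc1-/- eWAT library (adjusted p = 0.115). Of 9 tested Schwann cell markers 0 were called higher and 1 lower, with a median of -0.83.

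The gene nearest to Sncg was Mmrn2, which encodes the endothelial matrix protein multimerin 2 and begins 835 bases away. Mmrn2 rose from 24.2 and 17.0 CPM to 325 and 201 CPM (log2 fold change 3.67 ± 0.42, adjusted p = 0.0181), which is close to Adipoq, and was -0.19 once libraries were scaled on Adipoq plus Plin1. The other neighbours were not called. Glud1, the mitochondrial glutamate dehydrogenase, had a log2 fold change of 1.31 ± 0.49 (adjusted p = 0.143), Fam25c 3.74 ± 2.06 (adjusted p = 0.256) and Bmpr1a, a receptor of bone morphogenetic proteins, -1.35 ± 0.44 (adjusted p = 0.111). The Fam25c fold came from the second Crtc1-/- library alone (0.723 and 0.104 CPM in wild-type, 0.110 and 11.2 CPM in knockout-labelled eWAT). Glud1 was also higher in that library (372 CPM) than in the first Crtc1-/- library (157 CPM). Tmem273 (chr14:32785894-32817969, plus strand) lies 1552305 bases from Sncg on the same chromosome. Its neighbours with a test, 3425401B19Rik and Vstm4, had log2 fold changes of -0.49 ± 1.13 (adjusted p = 0.781) and 1.56 ± 0.48 (adjusted p = 0.0990).

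Nnat (chr2:157560078-157562525, plus strand) lies wholly inside the span of Blcap (chr2:157556362-157566361), its imprinted host locus, so unless strand was used in counting, the reads of the overlapping parts cannot be told apart. Blcap rose from 27.1 and 30.7 CPM to 224 and 156 CPM (log2 fold change 2.72 ± 0.33, adjusted p = 0.0193), which is below Adipoq, and had a log2 fold change of -1.01 when libraries were scaled on Adipoq plus Plin1. The next genes beyond it, Manbal (0.54 ± 0.38, adjusted p = 0.347), Src (-1.24 ± 0.47, adjusted p = 0.143) and Ctnnbl1 (0.45 ± 0.35, adjusted p = 0.397), were not called.

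Of 31 tested imprinted genes other than Nnat, 6 were called higher and 2 lower, where 6.65% of all genes were called higher and 5.54% lower, and their median log2 fold change was 0.83. The 6 called higher include Blcap, which overlaps Nnat, so this count may not be clear of the gene chosen for its rise. With upper-quartile or library-size scaling 4 were called higher, Sgce and Igf2r being lost. The strongest rise was in Mest, a paternally expressed gene that marks adipose expansion, from 5.60 and 9.91 CPM to 139 and 113 CPM (log2 fold change 4.03 ± 0.42, adjusted p = 0.0170). Cdkn1c, a cell cycle inhibitor (2.62 ± 0.28, adjusted p = 0.0170), Grb10, an adaptor that restrains insulin receptor signalling (2.11 ± 0.28, adjusted p = 0.0215), Sgce (1.65 ± 0.35, adjusted p = 0.0470) and Igf2r, the receptor that clears IGF2 (1.39 ± 0.26, adjusted p = 0.0373), also rose. The exchange factor gene Rasgrf1 (-6.64 ± 0.80, adjusted p = 0.0193) and Phlda2 (-4.59 ± 0.69, adjusted p = 0.0260) fell. Scaled on Adipoq plus Plin1, which moved the median over all genes to -3.75, 0 of the 31 were called higher and 21 lower by edgeR, and Mest was at 0.45.

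Cdsn (chr17:35543101-35557180, plus strand) was high in libraries where most other genes of the cornified layer were not. Of 13 tested genes of the cornified envelope and corneodesmosomes, 2 were called higher and 4 lower, with a median log2 fold change of -3.01. Those that rose were Jup, which encodes the junction protein plakoglobin and is expressed well beyond skin (from 176 and 173 to 799 and 574 CPM, 1.97 ± 0.36, adjusted p = 0.0353), and Sbsn, which encodes suprabasin (from 6.45 and 7.99 to 37.7 and 30.9 CPM, 2.25 ± 0.36, adjusted p = 0.0273). The Jup call was lost with library-size scaling (adjusted p = 0.0758), and both genes were negative, -1.78 and -1.42, when scaled on Adipoq plus Plin1. The genes that fell were Spink5, an inhibitor of epidermal proteases (-9.86 ± 0.68, adjusted p = 0.0127), Pkp1 (-6.86 ± 1.21, adjusted p = 0.0330) and Dsp (-3.81 ± 0.53, adjusted p = 0.0230) of desmosomes, and Lor, which encodes loricrin (-3.48 ± 0.76, adjusted p = 0.0499, and 0.174 without the second Crtc1-/- eWAT library). The neighbours of Cdsn with a test, Cchcr1 (-0.90 ± 0.73, adjusted p = 0.416), 2300002M23Rik (-0.78 ± 1.89, adjusted p = 0.791) and Gm9573 (-7.35 ± 1.80, adjusted p = 0.0617), were not called.

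Krt79 (chr15:101929332-101940324, minus strand) was high in the libraries in which other keratins were low. Of 11 other keratin genes tested, 0 were called higher by edgeR and 6 lower, with a median log2 fold change of -3.56. Krt5 and Krt14, the keratin pair of basal epithelial cells, fell from 85.1 and 86.8 to 0.0550 and 0 CPM and from 61.9 and 56.4 to 1.87 and 0.972 CPM (Krt14 log2 fold change -5.36 ± 0.48, adjusted p = 0.0162). Krt15, Krt17, Krt23 and Krt7 fell as well, the last by 3.56 on the log2 scale (SE 0.50, adjusted p = 0.0230). Krt8, the nearest tested keratin in the chr15 cluster, went from 501 and 411 CPM to 101 and 193 CPM and was not called (-1.63 ± 0.44, adjusted p = 0.0748). Of the 11, 1 had a positive fold, and it was not called. The immediate neighbours Krt4, Krt76 and Krt78 had 0 to 5 counts in each eWAT library, so the Krt79 counts did not come with counts on the genes beside it. Of 12 tested keratinocyte markers, 0 were called higher by edgeR and 6 lower, with a median of -2.63. These keratin and skin markers moved with the 40 epididymis markers given above, and the part of one in the other was not tested.

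**Figure D4:**
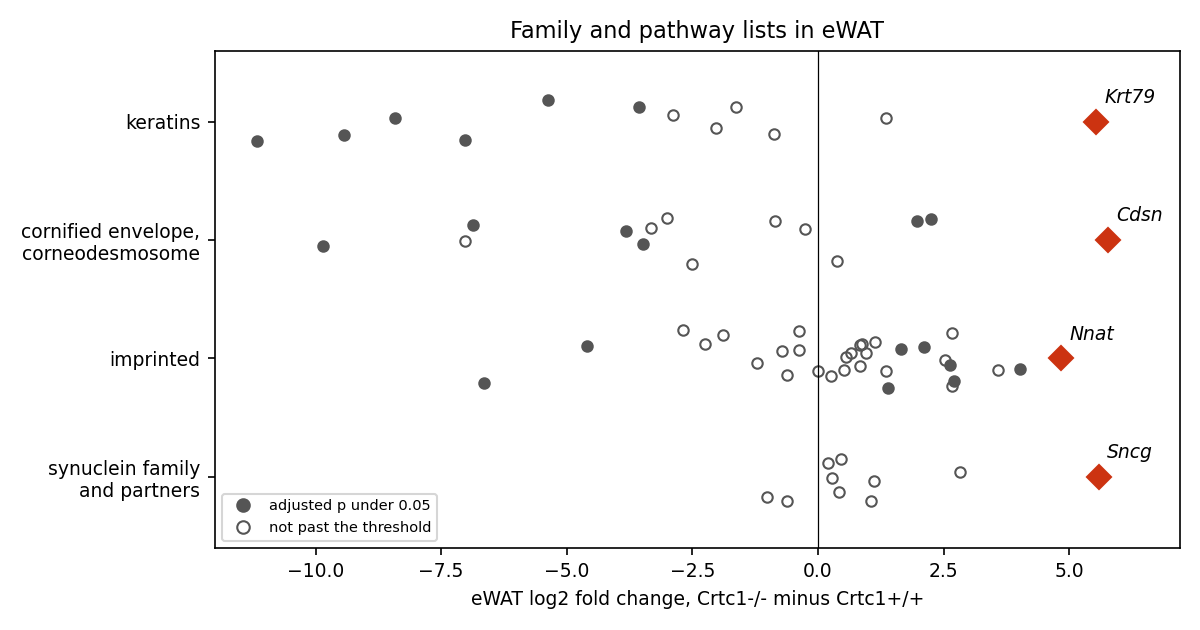
Fitted eWAT log2 fold change (Crtc1-/- minus Crtc1+/+) of the tested genes of 4 lists, filled where the adjusted p was under 0.05 and open otherwise; the diamonds are Krt79, Cdsn, Nnat and Sncg, which were chosen by this contrast. Keratins and cornified genes lie mostly at negative values (medians -3.56 and -3.01 without Krt79 and Cdsn), imprinted genes on both sides and synuclein partners near 0.

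Lists of fat function had positive median folds in eWAT. They share members such as Adipoq, Cidec, Lep and Angptl4 with each other or with the adipocyte markers, so their counts are not separate results. Among all genes tested, 6.65% were called higher. Of 21 lipid droplet and adipokine genes 16 were called higher and 0 lower in edgeR, with a median log2 fold change of 3.63. Of 14 genes linked to adipose expansion, 8 were called higher and 0 lower by edgeR, with a median of 2.45. Npr3, the natriuretic peptide clearance receptor (4.30 ± 0.69, adjusted p = 0.0279), Lep and Mest had the largest folds there, each below that of Nnat. Of 19 genes responsive to PPARG, 11 were called higher and 0 lower by edgeR, with a median of 3.10. In that list, Angptl4, an inhibitor of lipoprotein lipase, reached a log2 fold change of 4.89 ± 0.66 (adjusted p = 0.0221), from 28.6 and 73.3 to 1339 and 1693 CPM, which is above Nnat by less than its standard error and below the other 4 genes. Pck1, the glyceroneogenic enzyme of fat (4.63 ± 0.69, adjusted p = 0.0260), and Aqp7, the glycerol channel of adipocytes (4.38 ± 0.34, adjusted p = 0.0155), lay between Adipoq and Nnat. Of 18 genes responsive to CREB, 3 were called higher and 0 lower by edgeR, with a median of 0.92. The 3 were Pck1, Dusp1 and Per1, the last lost with either other scaling. Scaled on Adipoq plus Plin1, 0 genes of these lists were called higher by edgeR. Called lower were 2 lipid droplet, 6 expansion, 4 PPARG and 14 CREB genes. The list medians, in this order, were -0.07, -1.14, -0.47 and -2.84, beside -3.75 over all genes.

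Across all 8 libraries the profiles of the 5 genes resembled those of other eWAT genes. By Pearson r of log2 CPM over 8 libraries, the nearest gene to Sncg was Dram1 (0.997), to Nnat Ndrg1 (0.995), to Cdsn Kctd10 (0.999), to Krt79 Arhgap23 (0.997) and to Tmem273 Adcy4 (0.990). Rbp7 was among the 5 nearest of both Sncg (0.995) and Nnat (0.994), and Pparg was number 3 for Tmem273 (0.987). Among the 5 genes themselves r was highest between Sncg and Nnat (0.987) and lowest between Nnat and Tmem273 (0.789). With Adipoq, r was 0.976 for Sncg, 0.977 for Nnat, 0.927 for Cdsn, 0.728 for Krt79 and 0.719 for Tmem273. Why r was lower for Krt79 and Tmem273 was not tested. Both were nearly absent in Crtc1+/+ eWAT, where Adipoq was well above its liver level. Cdsn, with an r of 0.927, was also near the limit of detection there. The r values describe 4 groups of 2 libraries each, in which all genes of a library share its depth and tissue makeup. Only 4 of the 25 nearest genes remained when Euclidean distance replaced r.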

How the data were processed

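RNA-seq was made from pieces of liver and eWAT (Trizol, libraries by BGI), and all 8 libraries were used. The authors deposited estimated counts per gene (expected counts of reads, not normalized) and FPKM, scaled per transcript length and library. The submitters' processing notes name HISAT, Bowtie2 and GRCm38.p6. The counting tool, its use of strand and the annotation are not given in the sources used here. Each group had independent biological replicates per the study's methods, and replicate numbers are from the labels, which do not tie a number to a mouse. The paper describes taking liver and eWAT from randomly selected mice of each genotype, so libraries of both tissues may come from the same mice.

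Counts were rounded, filtered with filterByExpr, scaled by TMM within a tissue and tested with the edgeR 4.0.16 quasi-likelihood test (R 4.3.3, Benjamini-Hochberg over all genes tested). DESeq2 1.42.0 and limma 3.58.1 on log2(FPKM + 1) were alternatives, with other scalings, filters and libraries left out. Tests were checked on simulated data. Ratios used unscaled counts, and intervals are exact Poisson. Likeness used log2 CPM with a prior count of 2. Positions and promoters are from RefSeq and GENCODE. The 5 genes and the 17 gene lists were chosen with earlier results of these data known. Genes named were the 5, Crtc1, Adipoq, Plin1, the nearest genes by position, rank and r, and the most abundant or most changed list genes. Not every gene under this rule is reported here.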

Additional observations from a re-analysis of the deposited data

Results flagged for a closer look

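Krt79 had groups that did not overlap in either tissue, with opposite order. Both liver libraries labelled Crtc1-/- (mean 0.0846 CPM) lay below both labelled Crtc1+/+ (mean 0.233 CPM), whereas both eWAT libraries labelled Crtc1-/- lay above both labelled Crtc1+/+. The same order held in 26.4% of all genes tested in liver and in 31.3% of those tested in eWAT, and the eWAT order is the one Krt79 was chosen on. The liver values rest on 1 to 5 counts a library, Krt79 was not called there, and the difference between the tissues was not tested.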

How the results depend on the processing

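Each setting reuses eWAT libraries by which the 5 genes were chosen, so a positive fold there is no separate check. The 5 genes had a positive eWAT log2 fold change in every setting run. Their median was 5.53, and it was 3.75 with limma on log2(FPKM + 1), 1.83 when scaled on Adipoq plus Plin1 and 2.18 when scaled on the adipocyte markers; leaving out 1 library gave 4.98 to 5.67. Relative to Adipoq the median log2 fold was 1.89, against 2.19 relative to the adipocyte markers, and leaving out 1 library gave 1.57 to 2.03. The eWAT calls were 1875, against 4620 with DESeq2, 3861 with all 8 libraries in 1 fit, 13342 scaled on Adipoq plus Plin1 and 13294 scaled on the adipocyte markers (13 and 27 higher). Leaving out 1 library gave 0 to 3073 calls, with 0 without either Crtc1+/+ library.

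With the replicate block, eWAT had 0 calls (5418 genes at an unadjusted p under 0.05) and liver 82. The deviations of same-numbered libraries had r of -0.05 in eWAT and 0.07 in liver, so the numbers were not taken as pairs. The 10 liver calls became 311 with DESeq2, 301 with no filter, 0 with limma at either pseudocount (1799 and 1732 at an unadjusted p under 0.05), 0 with all 8 libraries in 1 fit (1536 at an unadjusted p under 0.05) and 1 to 1507 with 1 library left out. In liver 4 of the 5 genes passed with no filter, 5 with all 8 libraries and 0 to 1 with 1 library left out, and none was called by edgeR in any of these (all adjusted p from 0.247 to 1). Of the 25 nearest genes 14 remained with a prior count of 0.5, 4 with Euclidean distance and 8 to 17 with 1 library left out.

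Alternatives added after seeing the data, without the second Crtc1-/- eWAT library or with library-size or upper-quartile scaling, kept the counts of calls within 1.5 times for the adipocyte, imprinted, keratin and cornified lists, except that 1 cornified gene was called higher in place of 2 with library-size scaling. Outside these 4 lists, both scalings left 0 macrophage markers (3 before) and 0 neuronal markers (1 before) called higher, and without that library 7 macrophage markers were called higher and 5 mesothelial markers lower (2 before). With 2 libraries a group, the depth limits the Krt79 and Tmem273 folds in eWAT and each liver value.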

Other observations

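Endothelial genes rose with the adipocyte genes in eWAT. Of 14 endothelial markers 14 were called higher and 0 lower in edgeR, with a median log2 fold change of 3.67 beside 3.38 for the adipocyte markers, and their share of the counts went from 0.0575% and 0.0581% to 0.925% and 0.536%. Of 12 macrophage markers 3 were called higher and 0 lower in edgeR (median 2.02), of 12 mesothelial markers 1 higher and 2 lower (median -0.14), and of 17 hepatocyte markers 1 higher and 0 lower (median 4.15). Without the second Crtc1-/- eWAT library the hepatocyte median was -1.30, with 2 of 17 positive. With upper-quartile or library-size scaling 0 macrophage markers were called by edgeR. The epididymis markers had a median of -12.17.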
